A study of Homo sapiens with 23 samples.

Results

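The genes described here are the G1 regulators that decide whether a cell passes the restriction point: the D-type cyclins *CCND1*, *CCND2* and *CCND3*, their kinases *CDK4* and *CDK6*, the CIP/KIP inhibitors *CDKN1B* and *CDKN1C*, and the pocket proteins *RB1*, *RBL1* and *RBL2*. They were taken by name, and all 10 were found among the 61806 genes of the first table and the 42901 genes of the deep table. Gene expression was measured by RNA-seq of RNA depleted of ribosomal RNA in A549, an established human lung adenocarcinoma cell line, after depletion of THUMPD3, a methyltransferase that makes m2G in tRNA. The question was what the loss of this enzyme does in lung cancer cells whose proliferation and migration were under study.

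The first table held 17 libraries. The group siTHUMPD3 (3 libraries) was treated with an siRNA against *THUMPD3* and was set against siControl (2 libraries). The groups shD3#1 and shD3#4 (3 libraries each) carried different inducible shRNAs against *THUMPD3*, delivered by lentivirus, and were set against sh1Control and sh4Control (3 libraries each). The siRNA and shRNA cells were harvested on different days. The study's methods induced the shRNAs with doxycycline and call the controls untreated, without saying whether sh1Control and sh4Control were given doxycycline. The deep table held 3 libraries of shD3#1 and 3 of sh1Control, sequenced to greater depth. Whether they came from the same cultures or RNA as the first libraries is not given in the sources used here. Same-numbered first and deep libraries showed little shared deviation over 13884 genes (r of -0.031 to 0.114), which does not settle it. The labels call the libraries of a group biological replicates and give wild type as the genotype of every control, and nothing in them says that a knockdown line was 1 clone.

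D-type cyclins are made in response to growth signals and switch on CDK4 and CDK6. These kinases phosphorylate the pocket proteins, which otherwise hold E2F transcription factors in check, and the freed E2F factors switch on the genes of S phase. The CIP/KIP proteins p27 (from *CDKN1B*) and p57 (from *CDKN1C*) bind cyclin-CDK complexes and restrain CDK2 above all, and the INK4 proteins block CDK4 and CDK6 directly. Of the pocket proteins, RB binds mainly the activating E2F factors, p107 (from *RBL1*) and p130 (from *RBL2*) mainly the repressive ones, and p130 belongs to the DREAM complex of quiescent cells. *RBL1* is itself a known E2F target, and A549 cells are known to lack the INK4 locus that holds *CDKN2A* and *CDKN2B*.

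The sequence around the start of *RBL1* is shown because *RBL1* fell furthest of the 10 genes, and that of *CDK6* because it is the gene that passed the test in opposite directions under different knockdowns. Both are the 250 bases before a RefSeq transcription start on GRCh38.p14, read along the gene's strand, with E2F 8-mers in capitals. The *RBL1* stretch is chr20:37095998-37096247 and the *CDK6* stretch is chr7:92836574-92836823, both on the minus strand.
RBL1: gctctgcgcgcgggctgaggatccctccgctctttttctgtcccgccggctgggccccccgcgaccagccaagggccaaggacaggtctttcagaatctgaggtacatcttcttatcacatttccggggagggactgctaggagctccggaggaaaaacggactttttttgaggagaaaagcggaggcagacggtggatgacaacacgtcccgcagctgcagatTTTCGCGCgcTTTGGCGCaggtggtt
CDK6: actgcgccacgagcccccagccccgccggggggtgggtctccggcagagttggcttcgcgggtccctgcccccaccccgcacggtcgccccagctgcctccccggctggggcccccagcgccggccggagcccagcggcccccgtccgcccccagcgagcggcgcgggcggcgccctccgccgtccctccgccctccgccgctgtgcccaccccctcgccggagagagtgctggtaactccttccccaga

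The 8-mers searched on both strands were TTTCGCGC, TTTGGCGC, TTTCCCGC and TTTGCCGC, in windows of 250 bases before to 50 after each start. The RefSeq table held 11 such windows for 7 of the 10 genes (*CCND3*, *CDK4*, *CDK6*, *CDKN1B*, *RB1*, *RBL1* and *RBL2*), and did not list *CCND1*, *CCND2* or *CDKN1C*. Of the 11 windows, that of *RBL1* and 1 of the 2 of *CDK6* reached upstream of the GENCODE gene start. The others lay inside the gene, that of *RB1* far inside, so the sequence before the first start of those 5 genes was not searched. Among the windows searched, that of *RBL1* alone had a match, with TTTCGCGC starting 26 bases and TTTGGCGC 16 bases before the start. Of all 35116 windows in the table, 3.31% held at least 1 of the 8-mers. The cell cycle homology element TTTGAA, found in 15.2% of windows, was met in 1 window of *RBL2*, 24 bases after the start. These matches describe letters in a window and were not tested against the expression changes.

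Total counts per library were 9854294 to 22101059 in the first table and 27285889 to 59974740 in the deep table, where the controls were deeper than the knockdowns. Mitochondrially encoded genes took 24.8 to 37.4% of counts in the first table and 11.8 to 15.4% in the deep table. Levels are given in cpm, the usual unit of counts scaled to library size, here with TMM normalisation. The summed level of 5 epithelial markers was 2419 to 5507 cpm, against at most 7.21 cpm for 3 leukocyte, 1.58 cpm for 3 endothelial and 28.0 cpm for 4 fibroblast markers. The fibroblast sum was 7.73 to 8.41 cpm in deep sh1Control and 25.7 to 28.0 cpm in deep shD3#1, with DCN at 0 in both. In the first libraries it was 6.59 to 8.37 cpm in shD3#1 and 3.75 to 5.25 cpm in sh1Control. Its collagen *COL1A1* rose in both (log2 fold changes of 0.74 in the first and 1.72 in the deep libraries), and among the epithelial markers *CDH1* fell (-1.39 in both) while *KRT19* (1.95 and 1.71) and *EPCAM* (1.0 and 1.89) rose. The part of these markers in the results below was not tested. The third siTHUMPD3 library stood apart in some genes, with *KRT8*, an epithelial keratin, at 1260.1 cpm against 2387 and 2609 cpm in the other libraries of the group, and results that rest on it are given with and without it.

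*THUMPD3* (ENSG00000134077) was at 29.9, 29.6 and 31.8 cpm in shD3#1 against 60.7, 58.3 and 61.4 cpm in sh1Control. It was at 20.2, 19.98 and 19.1 cpm in shD3#4 against 66.7, 65.4 and 59.1 cpm in sh4Control, and at 11.8, 12.8 and 10.7 cpm in siTHUMPD3 against 67.5 and 70.3 cpm in siControl. The deep shD3#1 libraries held 24.9, 27.5 and 28.3 cpm against 54.0, 53.0 and 55.9 cpm. Every knockdown library was below every control library of its comparison, and the residual level was lowest in siTHUMPD3 and highest in shD3#1. The log2 fold changes were -0.97, -1.67 and -2.54 in shD3#1, shD3#4 and siTHUMPD3, and -1.01 in deep shD3#1.

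A gene was counted as changed at an adjusted p-value under 0.05 (edgeR's quasi-likelihood test, Benjamini-Hochberg over all genes tested) and a change of at least 1.5-fold, which is 0.585 on the log2 scale. In shD3#1, 2 of the 9 G1 regulators tested rose (*CCND1* and *CDKN1C*) and 3 fell (*CCND3*, *CDKN1B* and *RBL1*), while 14.5% of all genes tested rose and 14.6% fell. In shD3#4, 1 of 9 fell (*CDK6*), and 8.0% of all genes rose and 4.50% fell. None of the 9 rose there by edgeR or by DESeq2, and 1 was higher at an unadjusted p under 0.05. In siTHUMPD3, 4 of 10 rose (*CCND1*, *CCND2*, *CDK6* and *CDKN1C*) and 1 fell (*RBL1*), against 12.5% and 9.42% of all genes. In deep shD3#1, 2 of 9 rose (*CCND1* and *CDKN1C*), against 15.0% of all genes, and none fell by edgeR or DESeq2, against 14.1%. At an unadjusted p under 0.05, 4 of the 9 were lower there. *CCND2* passed the filter on low counts only in siTHUMPD3, where it was high, so its place in that count was set by the filter. In deep shD3#1, *CDKN1C* likewise passed the filter through the knockdown libraries alone, where it was high.

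**Figure D1:**
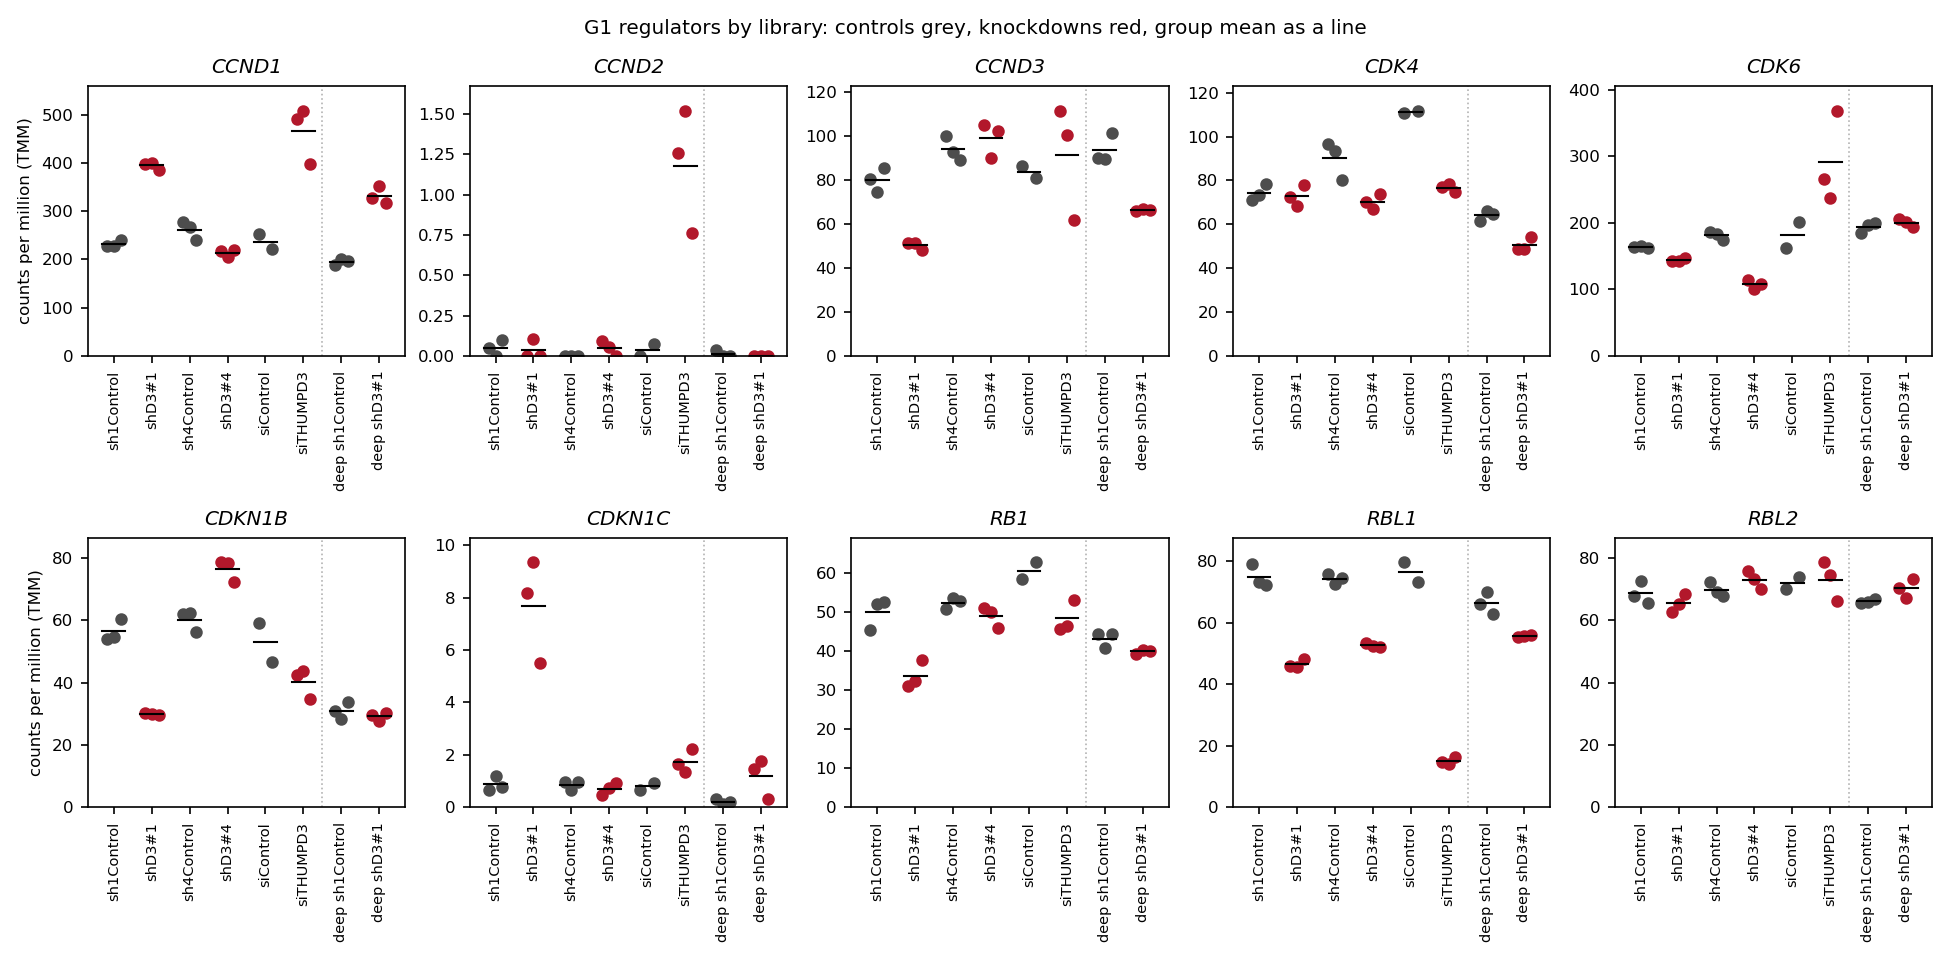
Level in cpm (TMM-normalised, y axis from 0, a scale of its own for each gene) of the 10 G1 regulators in each of the 23 libraries. Grey points are control libraries, red points are knockdown libraries and lines are group means, with the deep libraries right of the dotted line. *CCND2* stood above 0.103 cpm only in siTHUMPD3, and *RBL2* stayed between 62.7 and 78.7 cpm in the first 17 libraries.

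Per kilobase of the canonical transcript, *CCND1* had the highest level of the 10 genes in the 8 control libraries of the first table, with a median of 56.6 cpm per kb (52.3 to 65.5). *CDK4* followed at 46.5 (38.1 to 59.98) and *CCND3* at 42.4 (36.9 to 49.5), and these 3 ranges overlapped one another, except that *CCND1* and *CCND3* did not. *CDKN1B* lay at 24.0 cpm per kb (19.3 to 25.9), clear of its neighbours on either side. *CDK6* (14.6), *RBL2* (14.4), *RBL1* (13.0) and *RB1* (11.0) formed a lower group in which neighbours overlapped. *CDKN1C* had 0.484 cpm per kb, and *CCND2* was at 0 counts in most control libraries.

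*CCND1* (ENSG00000110092, chr11:69641156-69654474, plus strand) encodes cyclin D1, the D-type cyclin most often raised in carcinomas. It was at 399, 399.8 and 386 cpm in shD3#1 and at 228, 228 and 241 cpm in sh1Control. In siTHUMPD3 it was at 492, 508 and 398 cpm, and in siControl at 252 and 222 cpm. Knockdown libraries lay above all of their controls in both comparisons, with a log2 fold change of 0.79 ± 0.06 (SE, adjusted p = 8.54e-09) in shD3#1 and 0.98 ± 0.13 (SE, adjusted p = 0.00134) in siTHUMPD3. In shD3#4 the levels were 217, 204 and 219 cpm against 278, 268 and 239 cpm in sh4Control. All 3 knockdown libraries were below their controls there, by -0.28 ± 0.07 on the log2 scale (SE, adjusted p = 0.00152), which is under 1.5-fold. In bulk RNA, a change in the share of cells in a given cell cycle phase and a change in RNA per cell cannot be told apart, here and for the genes that follow.

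The deep libraries gave 328, 353 and 317 cpm of *CCND1* in shD3#1 and 188, 201 and 197 cpm in sh1Control. The groups did not overlap, and the log2 fold change was 0.77 ± 0.05 (SE, adjusted p = 3.92e-09). The effect in the deep libraries minus that in the first shD3#1 libraries was -0.03 ± 0.07 (SE, adjusted p = 0.794).

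*CCND2* (ENSG00000118971, chr12:4269771-4305353, plus strand), which encodes cyclin D2, was close to absent from all groups but one. It had 26, 26 and 15 counts in the siTHUMPD3 libraries, or 1.26, 1.52 and 0.764 cpm. The siControl libraries had 0 and 1 count, and no library of the other 6 groups had more than 2 counts. All siTHUMPD3 libraries were thus above every other library. The pooled ratio of siTHUMPD3 to siControl, 67 counts against 1, was 35.1 (95% interval of counting error 6.09 to 1408), and the fitted log2 fold change was 4.94 ± 0.84 (SE, adjusted p = 0.0036). Since the gene passed the filter on low counts through siTHUMPD3 alone, the filter had already selected on this difference, and the p-value is no support of its own. Per kilobase its mean in siTHUMPD3 was 0.182 cpm, a low level beside 110.0 cpm per kb for *CCND1* in the same group. Another protein-coding gene on the same strand (ENSG00000285901) overlaps *CCND2* over 31592 bases, so reads shared between them are uncertain.

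*CCND3* (ENSG00000112576, chr6:41934934-42050357, minus strand), which encodes cyclin D3, was at 51.3, 51.5 and 48.4 cpm in shD3#1 and at 80.4, 74.7 and 85.6 cpm in sh1Control. The knockdown libraries were all below the controls, and the gene fell by 0.65 ± 0.07 on the log2 scale (SE, adjusted p = 8.08e-07). In the deep libraries it was at 65.8, 66.7 and 66.5 cpm against 89.98, 89.7 and 102 cpm. Those groups did not overlap either, at -0.50 ± 0.05 on the log2 scale (SE, adjusted p = 1.33e-06), short of 1.5-fold. In shD3#4 the levels of 105, 90.3 and 103 cpm overlapped those of sh4Control (100.3, 93.0 and 89.3 cpm). In siTHUMPD3 they were 112, 101 and 62.0 cpm against 86.4 and 81.2 cpm, so that the third library lay below both controls and the others above. The log2 fold change there was 0.13 ± 0.22 (SE, adjusted p = 0.689), and 0.33 ± 0.09 (SE, adjusted p = 0.0113) without that library.

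*CDK4* (ENSG00000135446, chr12:57747727-57756013, minus strand) encodes the main partner kinase of the D-type cyclins. It passed the test in none of the 4 comparisons by edgeR. Its level was 74.9 to 78.2 cpm in siTHUMPD3 and 111 to 112 cpm in siControl, with no overlap and a log2 fold change of -0.54 ± 0.08 (SE, adjusted p = 0.00183). In shD3#4 it was 66.7 to 74.0 cpm against 80.0 to 96.8 cpm, and in deep shD3#1 48.7 to 54.3 cpm against 61.6 to 66.0 cpm, again with no overlap, at -0.34 in both. In the first shD3#1 libraries the levels of 68.3 to 77.8 cpm overlapped the 71.0 to 78.5 cpm of the controls. *TSPAN31* and *MARCHF9* overlap *CDK4* on the opposite strand, as *LTO1* does *CCND1* and *AKTIP* does *RBL2*. Whether the counting used strand is not given in the sources used here, so reads in such overlaps are uncertain.

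*CDK6* (ENSG00000105810, chr7:92604921-92836573, minus strand) encodes the other kinase partner of the D-type cyclins, and it went in opposite directions under different knockdowns. In shD3#4 it was at 114, 101 and 108 cpm, below the 186, 182 and 174 cpm of sh4Control in every library. It fell there by 0.74 ± 0.06 on the log2 scale (SE, adjusted p = 1.27e-09). In siTHUMPD3 it was at 266, 238 and 368 cpm, above the 162 and 201 cpm of siControl in every library. The rise was 0.68 ± 0.19 on the log2 scale (SE, adjusted p = 0.0301). Without the third siTHUMPD3 library it was 0.47 ± 0.11 (SE, adjusted p = 0.00826), which is under 1.5-fold, and without either siControl library the adjusted p was 0.195 or 0.0698.

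*CDK6* in shD3#1 was at 142, 142 and 147 cpm against 163, 166 and 162 cpm, with no overlap but a log2 fold change of only -0.17 ± 0.06 (SE, adjusted p = 0.0191). In deep shD3#1 it was at 206, 202 and 193 cpm against 185, 197 and 200.2 cpm, which overlapped.

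*CDKN1B* (ENSG00000111276, chr12:12685498-12722369, plus strand) encodes p27. It was at 30.4, 30.1 and 29.5 cpm in shD3#1 and at 54.2, 54.7 and 60.5 cpm in sh1Control. It fell by 0.89 ± 0.07 on the log2 scale (SE, adjusted p = 2.53e-08), with all knockdown libraries below all controls. In shD3#4 the levels were 78.7, 78.5 and 72.4 cpm against 61.9, 62.3 and 56.2 cpm, the other way round. All of these knockdown libraries lay above their controls, by 0.36 ± 0.07 (SE, adjusted p = 7.87e-05), short of 1.5-fold. In siTHUMPD3 the levels were 42.6, 43.6 and 34.7 cpm against 59.3 and 46.6 cpm, without overlap, at -0.39 ± 0.14 on the log2 scale (SE, adjusted p = 0.0642).

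In the deep libraries *CDKN1B* was at 29.7, 27.7 and 30.4 cpm in shD3#1 and at 30.8, 28.2 and 34.0 cpm in sh1Control. The groups overlapped, and the log2 fold change was -0.08 ± 0.07 (SE, adjusted p = 0.312). The same shRNA thus gave different fold changes in the first and the deep libraries, with shD3#1 at similar levels in both and sh1Control lower in the deep ones. The deep effect minus the first effect was 0.79 ± 0.10 (SE, adjusted p = 1.82e-05), the single difference past both thresholds among the 9 G1 regulators tested, where 8.94% of the 15786 genes tested passed. The deep controls were at a level close to that of the first shD3#1 libraries, although the tables were normalised separately and counted on different gene lists. *GPR19* overlaps *CDKN1B* on the opposite strand over 10710 bases. The deep effect minus the first effect also had an adjusted p under 0.05, though under 1.5-fold, for *RBL1* (0.40 ± 0.08, SE, adjusted p = 0.000884) and *RB1* (0.43 ± 0.10, adjusted p = 0.00335). The same held for *CDK4* (-0.35 ± 0.09, adjusted p = 0.00602) and *CDK6* (0.19 ± 0.07, adjusted p = 0.0422), but not for *CCND1*, *CCND3*, *CDKN1C* or *RBL2*.

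*CDKN1C* (ENSG00000129757, chr11:2883213-2885775, minus strand) encodes p57, an imprinted growth inhibitor. It had 126, 181 and 56 counts in shD3#1, or 8.18, 9.35 and 5.51 cpm, and 13, 21 and 16 counts in sh1Control, or 0.663, 1.19 and 0.793 cpm. All knockdown libraries were above all controls, and the rise of 3.19 ± 0.24 on the log2 scale (SE, adjusted p = 1.67e-08), or 9.11-fold, was the largest change among the 9 G1 regulators tested in shD3#1. In siTHUMPD3 it was at 1.64, 1.35 and 2.24 cpm (23 to 44 counts) against 0.671 and 0.924 cpm (12 and 13 counts). These did not overlap, at 1.15 ± 0.36 (SE, adjusted p = 0.0425). DESeq2 gave an adjusted p of 0.079 for this gene, and with each of the 5 libraries left out in turn it still passed only without siTHUMPD3 replicate 2 (adjusted p 0.0595 to 0.232 without the others).

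In shD3#4 *CDKN1C* was at 0.473, 0.742 and 0.914 cpm against 0.968, 0.672 and 0.954 cpm, so that the groups overlapped at 10 to 18 counts a library. In deep shD3#1 it was at 1.47, 1.76 and 0.332 cpm (45, 48 and 12 counts) against 0.323, 0.139 and 0.199 cpm (19, 7 and 11 counts). All 3 were above the controls, though the third by little, and the rise was 2.35 ± 0.51 on the log2 scale (SE, adjusted p = 0.00103). In this fit the gene passed the filter on low counts through the knockdown libraries alone, where it was high. The filter had thus selected on this difference, and the p-value is no support of its own. The rise was 2.83 ± 0.36 (SE, adjusted p = 1.9e-06) without the third knockdown library. The effect in the deep libraries minus that in the first was -0.89 ± 0.68 (SE, adjusted p = 0.38).

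*RB1* (ENSG00000139687, chr13:48303744-48599436, plus strand) encodes the retinoblastoma protein. It passed the test in none of the 4 comparisons by edgeR, and came nearest in shD3#1. There it was at 31.1, 32.2 and 37.6 cpm against 45.4, 52.1 and 52.4 cpm, with no overlap and a log2 fold change of -0.56 ± 0.08 (SE, adjusted p = 3.05e-05). In siTHUMPD3 it was at 45.6 to 52.9 cpm against 58.2 to 62.7 cpm, at -0.32 ± 0.10 (SE, adjusted p = 0.0424). In shD3#4 (45.9 to 50.9 cpm against 50.7 to 53.5 cpm) the groups overlapped. In deep shD3#1 it was at 39.2 to 40.3 cpm against 40.8 to 44.3 cpm, with an adjusted p of 0.0722. *LPAR6* and *RCBTB2* overlap *RB1* on the opposite strand.

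*RBL1* (ENSG00000080839, chr20:36996349-37095997, minus strand), which encodes p107 and whose upstream sequence with both E2F 8-mers is printed above, was lower in all 4 comparisons. In siTHUMPD3 it was at 14.8, 14.2 and 16.2 cpm against 79.6 and 73.2 cpm in siControl. It fell by 2.34 ± 0.10 on the log2 scale (SE, adjusted p = 6.88e-06), to 0.198 of the control level. In shD3#1 it was at 45.8, 45.4 and 48.3 cpm against 78.9, 73.2 and 72.1 cpm in sh1Control, and fell by 0.67 ± 0.07 (SE, adjusted p = 4.23e-07). In shD3#4 it was at 53.2, 52.5 and 52.0 cpm against 75.6, 72.6 and 74.3 cpm. In deep shD3#1 it was at 55.4, 55.7 and 56.0 cpm against 66.2, 69.9 and 62.8 cpm. Knockdown libraries lay below every control in each of these comparisons, at -0.48 ± 0.06 (SE, adjusted p = 8.08e-07) in shD3#4 and -0.25 ± 0.05 (SE, adjusted p = 0.000545) in deep shD3#1, both short of 1.5-fold.

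*RBL2* (ENSG00000103479, chr16:53433977-53491648, plus strand), which encodes p130, gave log2 fold changes of -0.05, 0.08 and 0.02 in shD3#1, shD3#4 and siTHUMPD3 and 0.09 in deep shD3#1. The groups overlapped in each of the first 3 comparisons. In the deep libraries it was at 67.3 to 73.4 cpm against 65.6 to 66.9 cpm, with an adjusted p of 0.107.

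**Figure D2:**
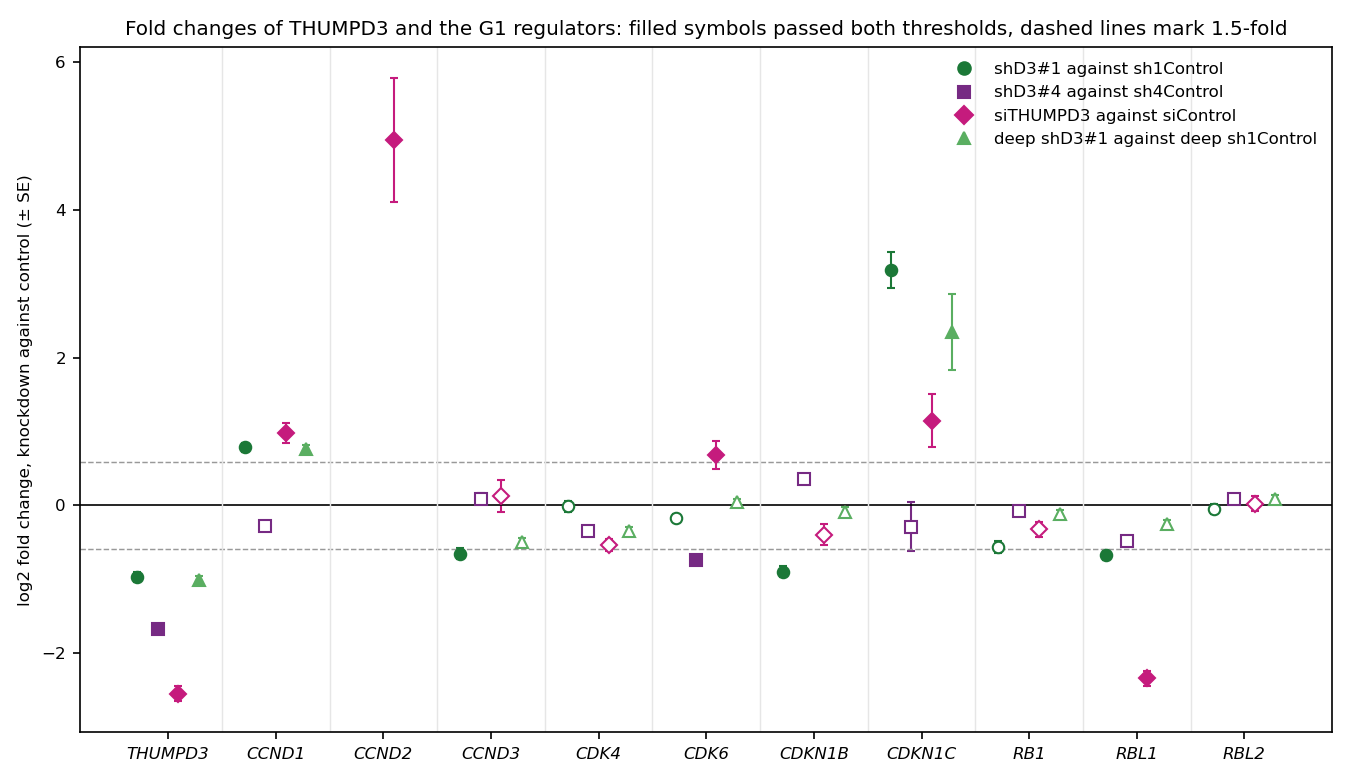
Log2 fold change of each knockdown against its own controls (y axis, log2 scale) with its standard error, for *THUMPD3* and the 10 G1 regulators. Filled symbols passed both thresholds, and dashed lines mark 1.5-fold. *CDKN1C* rose by 3.19 in shD3#1, and *RBL1* in siTHUMPD3 lay at -2.34, close to the -2.54 of *THUMPD3* itself.

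The make-up of each family was compared per kilobase of canonical transcript, as a description with no test. *CCND1* made up 57.0 to 58.1% of D-type cyclin transcripts in the 3 control groups of the first table, on average. In shD3#1 its share was 78.9% ± 0.263 (SD of 3 libraries), in siTHUMPD3 71.2% ± 3.85 and in shD3#4 50.7% ± 1.21. The summed level of the D-type cyclins was 118 ± 2.66 cpm per kb in shD3#1 against 94.4 ± 4.27 in sh1Control, and 155 ± 26.5 in siTHUMPD3 against 97.3 ± 6.87 in siControl (SD). It was 99.4 ± 5.72 in shD3#4 against 108 ± 7.28 in sh4Control. In the deep libraries the share of *CCND1* was 70.5% ± 1.08 in shD3#1 against 49.9% ± 1.81, and the sum was 111 ± 4.42 against 92.3 ± 4.02 cpm per kb (SD).

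*CDK6* took 37.5% ± 5.87 (SD of 3 libraries) of *CDK4* and *CDK6* together in siTHUMPD3 against 20.6% ± 2.43 in siControl (2 libraries). It took 19.6% ± 0.904 in shD3#4 against 24.4% ± 1.26 in sh4Control. *CDKN1C* took 2.09% of the CIP/KIP pair in sh1Control and 25.6% ± 4.85 in shD3#1. The sum of the pair was nonetheless lower there, at 16.8 ± 1.26 cpm per kb against 23.9 ± 1.44 (SD), *CDKN1B* being the more abundant of the pair. This sum leaves out *CDKN1A*, also a CIP/KIP gene, whose mean was 199 cpm in shD3#1 against 48.0 cpm in sh1Control. The lower sum is thus not that of all CIP/KIP genes. In the deep libraries *CDKN1C* took 5.23% ± 3.36 in shD3#1 against 0.953% ± 0.397 in sh1Control, and the sum of the pair was 12.8 ± 0.332 cpm per kb against 12.98 ± 1.21 (SD), within the spread between libraries. Among the pocket proteins, *RBL1* went from 32.8% ± 2.29 in siControl to 9.52% ± 0.723 in siTHUMPD3, *RBL2* from 36.2% to 54.1% and *RB1* from 30.9% to 36.4%. Their summed level was lower in siTHUMPD3, at 27.8 ± 0.478 cpm per kb against 41.0 ± 0.410 (SD), and the levels of *RBL2* itself overlapped.

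**Figure D3:**
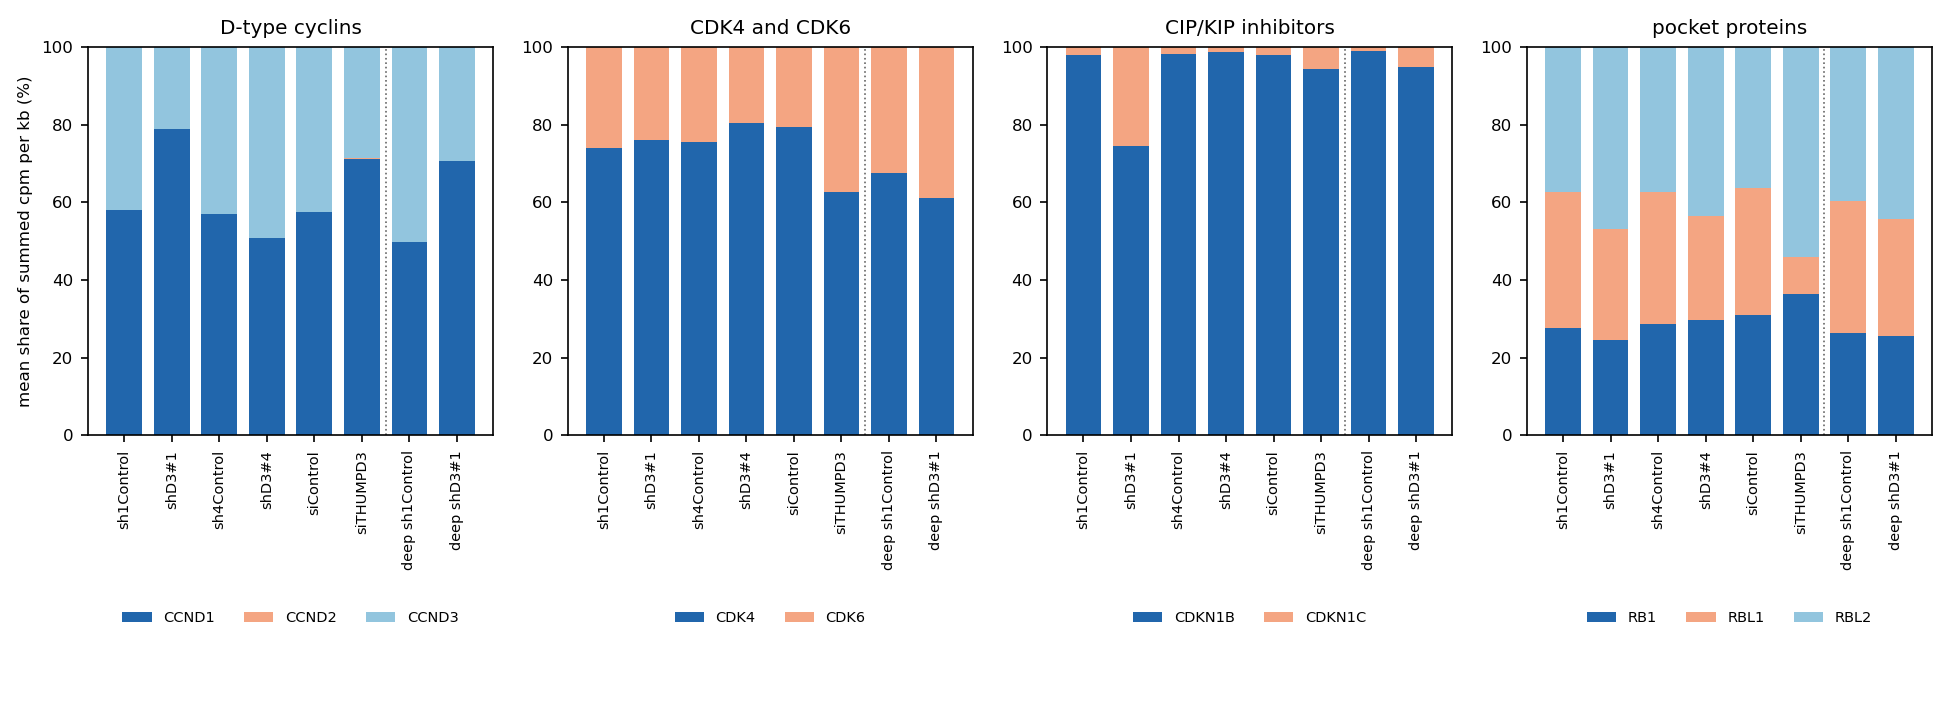
Mean share of each gene in the summed cpm per kb of its family (y axis, percent from 0 to 100) in the 8 groups. The CIP/KIP bars hold *CDKN1B* and *CDKN1C* only, without *CDKN1A*. Stacked bars are group means of 3 libraries (2 in siControl), with the deep groups right of the dotted line. *CCND1* took its largest shares of the D-type cyclins in shD3#1 (78.9%) and siTHUMPD3 (71.2%), and *RBL1* the smallest share of the pocket proteins in siTHUMPD3 (9.52%).

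Each pair of knockdown effects was then compared in 1 model of the 17 first libraries. Between shD3#1 and shD3#4, 4 of the 10 G1 regulators differed past both thresholds, against 25.9% of all genes tested. These were *CDKN1C* (3.45 ± 0.45 higher in shD3#1 on the log2 scale, SE, adjusted p = 4.1e-06), *CCND1* (1.06 ± 0.12 higher, adjusted p = 6e-07), *CDKN1B* (-1.26 ± 0.13, adjusted p = 2.03e-07) and *CCND3* (-0.75 ± 0.19, adjusted p = 0.00366). For *CCND1* and *CDKN1B* the first libraries of the 2 knockdowns moved to opposite sides of their own controls in every case. The deep libraries of shD3#1 repeated the rise of *CCND1* (0.77) but not the fall of *CDKN1B*, which overlapped its controls there (-0.08). *RBL1* did not pass, with a difference of -0.19 ± 0.09 (SE, adjusted p = 0.108).

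Between siTHUMPD3 and shD3#1, 5 of 10 differed, against 25.4% of all genes. The effect on *RBL1* was lower in siTHUMPD3 by -1.65 ± 0.10 (SE, adjusted p = 2.61e-10) and that on *CDKN1C* by -2.002 ± 0.49 (SE, adjusted p = 0.00306). In siTHUMPD3 the effects on *CDK6* (0.87 ± 0.17, adjusted p = 0.000424), *CCND3* (0.79 ± 0.20, adjusted p = 0.00423) and *CCND2* (5.15 ± 1.87, adjusted p = 0.0368) were higher, the last on counts of 0 to 2 in every library outside siTHUMPD3 and without a pass when any of 5 single libraries was left out. The filter let *CCND2* into this model through siTHUMPD3 alone, so its place in the count of 5 is no support of its own. The effects on *CCND1* differed by 0.21 ± 0.13 (SE, adjusted p = 0.206).

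Between siTHUMPD3 and shD3#4, 5 of 10 differed, against 17.8% of all genes. *CDK6* (1.43 ± 0.17, adjusted p = 1.66e-06), *CCND1* (1.27 ± 0.13, adjusted p = 1.44e-07) and *CDKN1C* (1.45 ± 0.52, adjusted p = 0.0417) were higher in siTHUMPD3, the last without a pass when any of 7 single libraries was left out. *RBL1* (-1.85 ± 0.10, adjusted p = 2.6e-11) and *CDKN1B* (-0.75 ± 0.14, adjusted p = 0.000289) were lower. The 3 comparisons share libraries. The knockdowns differed in the level of *THUMPD3* left, and siTHUMPD3 differed from both shRNA knockdowns in the day of harvest too, so that these cannot be told apart from the agent used. The shRNA knockdowns were also induced with doxycycline, which cannot be told apart from the shRNA if their controls had none.

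The other genes of the pathway were taken from 8 lists of 53 genes, and their counts stand beside the shares of all genes that rose or fell in the same comparison, given above. Of the INK4 and other CDK inhibitors, *CDKN2A* and *CDKN2B* had 0 counts in all 23 libraries, where 3 counts in a library would be 0.05 to 0.304 cpm. *CDKN1A* encodes p21, a CIP/KIP protein like p27 and p57. It was at 857, 815 and 674 cpm in siTHUMPD3 against 65.8 and 71.4 cpm, and rose by 3.51 ± 0.15 on the log2 scale (SE, adjusted p = 6.88e-06). It also rose in shD3#1 (2.07) and deep shD3#1 (1.24) and was at 0.20 in shD3#4. *CDKN2C*, which encodes p18, fell in siTHUMPD3 (-2.02) and shD3#1 (-0.66) and was at -0.02 in shD3#4 and 0.40 in deep shD3#1. *CDKN2D*, which encodes p19, passed in none of the 4 comparisons by edgeR, with log2 fold changes of -0.61 to 0.41.

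Of the 4 genes of the cyclin E and CDK2 list, 3 fell in siTHUMPD3. *CCNE2* was at -2.21, *CDK2* at -2.06 and *CDC25A*, the phosphatase that activates CDK2, at -2.68, whereas *CCNE1* was at -0.13. The list's median log2 fold change was -2.13 against 0.03 for all genes tested. In shD3#1, shD3#4 and deep shD3#1 the medians were -0.13, -0.31 and -0.06, and no gene of the list passed by edgeR or DESeq2, with 1, 3 and 3 past an unadjusted p of 0.05.

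Among 11 genes of p27 and cyclin turnover, *CKS1B*, the cofactor that lets the SKP2 ligase recognise p27, fell in all 4 comparisons (-1.01 in shD3#1, -0.78 in shD3#4, -2.18 in siTHUMPD3 and -1.05 in deep shD3#1). *SKP2* fell in siTHUMPD3 (-0.94) and lay between -0.03 and 0.06 in the others. *FBXW7*, the ligase subunit for cyclin E, rose in shD3#1 (0.90) and siTHUMPD3 (1.26). In all, 1 of 11 rose and 2 fell in shD3#1, 1 fell in shD3#4, 1 rose and 2 fell in siTHUMPD3 and 1 fell in deep shD3#1, with medians of -0.10, -0.01, 0.08 and 0.05. With 11 genes these counts are near those shares (14.5% higher and 14.6% lower in shD3#1, for example).

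Of the 6 transcriptional inputs to the D-type cyclins and p27, *JUN*, an AP-1 subunit, rose in shD3#1 (1.89), siTHUMPD3 (0.95) and deep shD3#1 (0.93) and fell in shD3#4 (-1.08). *MYC* was at 0.27, -0.20 and -0.28 in shD3#1, shD3#4 and siTHUMPD3. The list had 2 genes up in shD3#1, 3 up in siTHUMPD3 and 3 up in deep shD3#1, and 1 up and 2 down in shD3#4. Its medians were 0.40, 0.90, 0.54 and -0.14 in that order, against -0.01, 0.03, -0.02 and 0.01 for all genes tested.

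Of the 10 E2F and DP factors, 4 fell in shD3#1, 2 in shD3#4, 4 in siTHUMPD3 and 1 in deep shD3#1. *E2F2*, an activating factor, and *E2F8*, a repressive one, fell in all 3 knockdowns of the first table (-1.11, -0.63 and -3.50 for *E2F2*, and -0.69, -0.63 and -3.84 for *E2F8*, in shD3#1, shD3#4 and siTHUMPD3). *E2F6* was the least lowered, at 0.22, 0.10 and 0.09. Of the MuvB core and B-Myb, *MYBL2* fell in all 4 comparisons (-1.34, -0.61, -3.28 and -0.83 in deep shD3#1), and *LIN37* rose in shD3#1 (0.70). In all, 1 of 6 rose and 1 fell in shD3#1, 2 fell in shD3#4, 4 in siTHUMPD3 and 1 in deep shD3#1. None of the 3 genes of the CDK-activating kinase list passed by edgeR or DESeq2 in any comparison. In each comparison, 2 were past an unadjusted p of 0.05. *CDK7* and *MNAT1* had log2 fold changes of -0.55 to 0.24 in the first table, and *MNAT1* was at 0.16 in deep shD3#1. *CDK7* had group means of 19.8 to 32.5 cpm in the first table but only 0.476 against 0.333 cpm in the deep one. Its deep log2 fold change of 0.51 ± 0.41 (SE, adjusted p = 0.295), with overlapping libraries, is too imprecise at that level to show a change or its absence.

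Of the 8 proliferation markers, 7 fell in shD3#1, 4 in shD3#4, 8 in siTHUMPD3 and 2 in deep shD3#1, with medians of -0.91, -0.54, -3.20 and -0.31. *MKI67*, which encodes the Ki-67 antigen, was at 231, 246 and 233 cpm in shD3#1 against 602, 596 and 532 cpm, and at 21.8, 24.8 and 41.4 cpm in siTHUMPD3 against 332 and 265 cpm. It fell in both and in deep shD3#1 (-1.27, -3.34 and -0.70), and was at -0.22 in shD3#4. *CCNA2*, *CCNB1*, *MCM2* and *MCM7* fell in all 3 knockdowns of the first table.

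**Figure D4:**
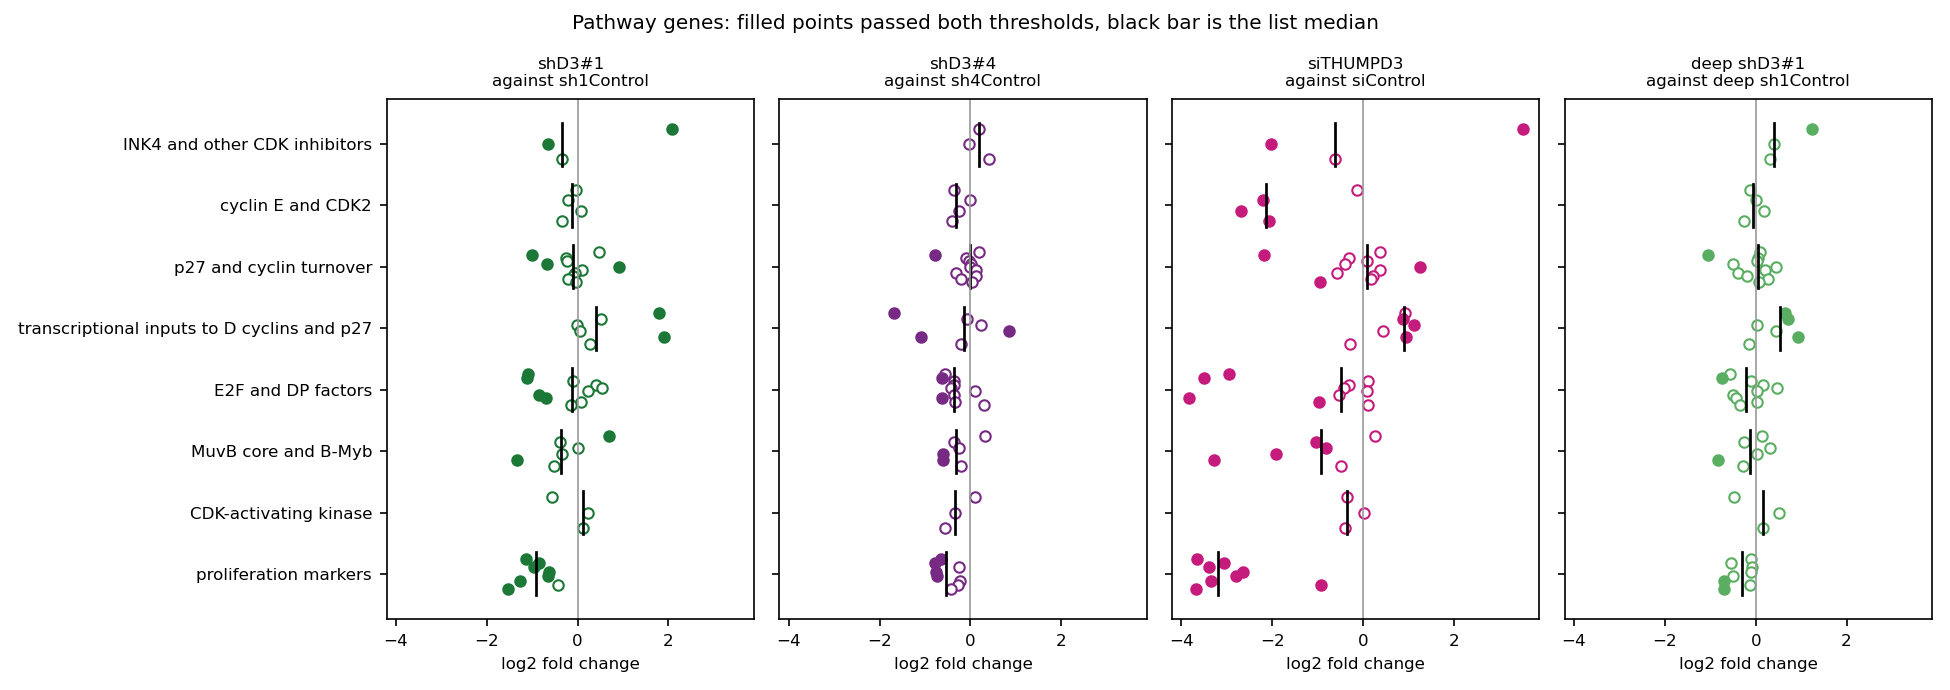
Log2 fold changes (x axis) of the genes of 8 pathway lists in the 4 comparisons, 1 panel each. Filled points passed both thresholds and black bars are list medians, which for the proliferation markers were -0.91, -0.54, -3.20 and -0.31 from left to right.

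For the G1 regulators that passed in at least 2 of the 3 first comparisons, the genes with the most similar pattern were sought among 11455 genes, by Pearson's r of log2 cpm over the 17 libraries. These r values describe 6 groups of libraries that share 1 table, and carry no test. *RBL1* was most like *XRCC3* (r = 0.994), *CCNB1* (0.994) and *RFC5* (0.993). *CCND1* was most like *SFN* (0.970), *NACC2* (0.957) and *TRIM35* (0.956), and the genes like *CDK6* included *SOCS2* (0.957) and *FSCN1* (0.954). *CDKN1C* was most like *TMEM87B* (0.958), *SERPINB7* (0.954) and *TAPT1* (0.952).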

How the data were processed

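RNA-seq of 23 A549 libraries was analysed in 2 tables. The submitters' processing notes name Trimmomatic 0.40, STAR 2.7.10a and GRCh38.p14. The deposited values are raw counts of reads per gene, and the strand setting used in counting is not given in the sources used here. The first table lists Ensembl identifiers and the deep table lists symbols.

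Each knockdown was fitted against its own controls with edgeR 4.0.16 (R 4.3.3): TMM, the default filterByExpr filter and the quasi-likelihood test. Differences between knockdown effects came from 1 group-means model of 17 libraries. The difference between deep and first shD3#1 effects, over the 27441 symbols both tables hold, was added after values were seen. It took the libraries of both tables as separate, which the labels do not settle. Levels are TMM cpm, scaled within each table. Gene positions and transcript lengths came from GENCODE 44 on GRCh38. Each SE belongs to a log2 fold change and each SD to the libraries of a group. The main gene fits were first tested on simulated data.

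The genes, lists and tests were chosen with earlier results of these data known. Named pathway genes were those changed the same way in all 3 first comparisons, or else the most and least changed by mean log2 fold change, and *CDKN1A*, *CDKN2A* to *CDKN2D*, *CCNE1*, *CCNE2*, *CDK2*, *SKP2* and *MKI67*. *FBXW7*, *E2F6*, *LIN37*, the cell type markers and the genes that overlap the G1 regulators were named after values or overlaps were seen. A result on similar patterns is not reported here.

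Alternatives were DESeq2 1.42.0, DESeq2 size factors, TMM without mitochondrial genes, a filter of 1 count only, a filter of 10 counts in each library, 1 fit of all 17 libraries, the replicate number as a block and each library left out. Figures used Python 3.11.15 and matplotlib 3.10.9. Low counts, as for *CCND2* and *CDKN1C*, are far less precise than those of the other genes.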

Additional observations from a re-analysis of the deposited data

Results flagged for a closer look

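The effects of different knockdowns on the same gene differed past both thresholds in 14 cases, by edgeR's test of the difference itself over all genes, and each is given as the log2 difference between effects. Of all genes tested, 25.9% differed between shD3#1 and shD3#4, 25.4% between siTHUMPD3 and shD3#1 and 17.8% between siTHUMPD3 and shD3#4. These comparisons share libraries and each follows from the others, so the 14 are not separate cases. Between shD3#1 and shD3#4 these were *CCND1* (1.06, adjusted p = 6e-07), *CCND3* (-0.75, adjusted p = 0.00366), *CDKN1B* (-1.26, adjusted p = 2.03e-07) and *CDKN1C* (3.45, adjusted p = 4.1e-06). That of *CDKN1B* rests on the first shD3#1 libraries, as the deep ones overlapped their controls (log2 fold change of -0.08). Between the other pairs the differences were as follows. Between siTHUMPD3 and shD3#1 they were *CCND2* (5.15, adjusted p = 0.0368), *CCND3* (0.79, adjusted p = 0.00423), *CDK6* (0.87, adjusted p = 0.000424), *CDKN1C* (-2.002, adjusted p = 0.00306) and *RBL1* (-1.65, adjusted p = 2.61e-10). Between siTHUMPD3 and shD3#4 they were *CCND1* (1.27, adjusted p = 1.44e-07), *CDK6* (1.43, adjusted p = 1.66e-06), *CDKN1B* (-0.75, adjusted p = 0.000289), *CDKN1C* (1.45, adjusted p = 0.0417) and *RBL1* (-1.85, adjusted p = 2.6e-11). *CCND2* entered the model through siTHUMPD3 alone, on 0 to 2 counts in every other library, so its difference is no support of its own. No group held 4 or more libraries, so single libraries were not tested as outliers.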

How the results depend on the processing

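Counts of G1 regulators that changed moved by over 1.5 times in 3 settings. In siTHUMPD3 the 4 that rose became 2 with the replicate number as a block (*CDK6* at 0.48, under 1.5-fold, and *CDKN1C* at 0.93, adjusted p = 0.0701) and 2 to 4 with a library left out (2 without siControl replicate 1 or 2 or siTHUMPD3 replicate 3). In deep shD3#1 the 2 that rose became 1 with at least 10 counts in every library, since *CDKN1C* was filtered out. The 5 that differed between siTHUMPD3 and shD3#4 became 3 without siControl replicate 1 and 3 to 5 over all left-out libraries. Same-numbered libraries showed little shared deviation over all genes (r of -0.108 to 0.142), which does not settle whether the numbers pair them. With 2 siControl libraries, the r values of the siRNA comparison mirror each other by construction and cannot show pairing. With the block, siTHUMPD3 replicate 3 had no control of the same number and added nothing to the siRNA effect, much as when it was left out. Of single values, 442 kept their side of the threshold in the settings other than leaving a library out, 4 lost it, 4 gained it and 2 changed sign. With a library left out, 709 kept it, 20 lost it, 6 gained it and 10 changed sign.

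The sign changes were of values near 0. *RBL2* in siTHUMPD3 (0.02) was at -0.0050 with a filter of 1 count only and at -0.023 to 0.081 with a library left out, and its difference between siTHUMPD3 and shD3#4 was 0.022 with the replicate block and -0.11 to 0.0082 with a library left out. With a library left out, *CDK4* in shD3#1 ranged from -0.063 to 0.040, *CCND3* in siTHUMPD3 from -0.032 to 0.33, and the *CCND3* difference between siTHUMPD3 and shD3#4 from -0.13 to 0.25. *CDKN1B* between siTHUMPD3 and shD3#4 (-0.75) was -0.58 without siControl replicate 1, and *CCND2* between siTHUMPD3 and shD3#1 (5.15) ranged from 4.11 to 8.03 over left-out libraries and missed the threshold without siControl replicate 1, sh1Control replicate 1 or 3, or shD3#1 replicate 1 or 3 (adjusted p up to 0.228). *CDKN1C* between siTHUMPD3 and shD3#4 (1.45) was 1.24 with the replicate block (adjusted p = 0.062), and missed the threshold without either siControl library, sh4Control replicate 1 or 3, shD3#4 replicate 1 or 2, or siTHUMPD3 replicate 3 (adjusted p up to 0.183). *RB1* in shD3#1 passed 1.5-fold without shD3#1 replicate 3 (-0.64) or sh1Control replicate 1 (-0.62), *CDK6* between shD3#1 and shD3#4 (0.57) without sh4Control replicate 3 (0.59) or shD3#4 replicate 1 (0.61) and under DESeq2 (0.59), its size factors (0.59) or TMM without mitochondrial genes (0.60), and *CDKN1B* between siTHUMPD3 and shD3#1 (0.51) with the block (0.61) or without siControl replicate 1 (0.68) or siTHUMPD3 replicate 3 (0.59). The cause of these moves was not tested. Low counts limit *CCND2* and *CDKN1C*, and siControl had 2 libraries.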
